A study of Danio rerio with 2 samples.

Results

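RNA counts of 40 cell cycle genes, out of 27597 genes counted, were described in the zebrafish gastrula. Of the 40, 18 act in DNA replication and 22 in mitosis. The genes were taken by symbol from the deposited gene list, and all 40 were found. Whole embryos at the shield stage, the onset of gastrulation, were compared between the wild type, strain A2B2 in the study, and *MZwnt11/slb*, which lacks functional *wnt11f2*, a planar cell polarity ligand, both from the mother and from the embryo. Embryos were dissociated and fixed in 1 step with acetic acid and methanol (ACME), the DAPI-stained cells were sorted to favour single cells, and 1 Chromium library was made from each genotype. The number of embryos pooled in a library is not stated by the sources used. With 1 library of each genotype no difference between genotypes could be tested, and the 95% intervals below cover counting error only. Genotype cannot be told apart here from fish line, embryo pool or library preparation.

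A dividing cell copies its DNA in S phase and separates the copies in mitosis. Before S phase the licensing factors Cdc6 and Cdt1 load the Mcm2 to Mcm7 helicase on to DNA, and during it the sliding clamp Pcna holds the polymerases on the template. Entry into and exit from mitosis are run by cyclin A, cyclin B and Cdk1, by the Polo and Aurora kinases, and by ubiquitin ligases that destroy the cyclins. The cleavage cycles of the early zebrafish embryo are fast and run on maternal messages, and they lengthen from the mid-blastula onwards.

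Levels are given as CPM, the unique molecular identifiers (UMIs) of a gene per 1000000 UMIs of the cells named. The S sum is the level of the 18 replication genes together and the G2/M sum that of the 22 mitosis genes. Neither sum is a phase call, and genes differ in how well a 3′ tag captures them, so levels are compared between cells and not between genes. Wild type held 8862 cells with a median of 3874 UMIs per cell, and *MZwnt11/slb* 7911 cells with a median of 4595. The libraries shared 16 cell barcodes. The mutated gene *wnt11f2* stood at 99.3 CPM in wild type and 41.4 in *MZwnt11/slb*, and a 3′ tag does not read the allele. Of the genes in the table, 11756 had at least 100 UMIs over both libraries, and all 40 members were among them.

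Both sums took a larger share of the UMIs in *MZwnt11/slb*. The S sum was 3973 CPM (95% interval 3952 to 3993) in wild type and 4652 (4631 to 4673) in *MZwnt11/slb*, a log2 ratio of 0.23 (0.22 to 0.24). The G2/M sum was 5068 (5046 to 5091) and 5640 (5617 to 5664), a log2 ratio of 0.15 (0.15 to 0.16). The replication genes thus made up 0.397% and 0.465% of all UMIs, and the mitosis genes 0.507% and 0.564%. For each S UMI there were 1.28 G2/M UMIs in wild type and 1.21 in *MZwnt11/slb*. A few genes carried the sums, since the 3 replication genes with the most UMIs gave 46.4% and 45.0% of the S sum and the 3 such mitosis genes 47.7% and 48.9% of the G2/M sum. Without *pcna* and *ccna2*, the first of each list, the log2 ratios were 0.22 and 0.19. These 2 were picked by UMIs and had log2 ratios of 0.26 and 0.01. Leaving them out does not show how widely the rise was shared. Above 0 were 12 of 18 replication genes and 12 of 22 mitosis genes, with 6 and 10 below. Of the 11756 genes tested 5036 were above 0 and 6720 below.

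Few members moved far between the libraries. A log2 ratio of at least 0.5 in size was counted as past the fold. By this measure 3 of 18 replication genes (16.7%) and 1 of 22 mitosis genes (4.5%) were higher in *MZwnt11/slb*. Of all genes tested 14.9% were, near the replication share. All genes tested were not matched to the members for UMIs. On the other side, 1 replication gene and 2 mitosis genes were lower, against 24.2% of all genes tested. The median log2 ratio was 0.12 over the replication genes, 0.02 over the mitosis genes and -0.09 over all genes tested.

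Among the licensing factors and the clamp, *pcna* had the most UMIs, at 979 CPM in wild type and 1173 in *MZwnt11/slb*, a log2 ratio of 0.26 (0.24 to 0.28). *cdc6*, which loads the helicase, stood at 299 and 388, a log2 ratio of 0.38 (0.34 to 0.41). Its partner *cdt1*, the factor that is removed once S phase has begun, stood at 321 in both libraries, a log2 ratio of 0.00 (-0.03 to 0.04). Both loading factors thus had ratios of their own. *slbp* encodes the protein that binds the stem-loop of histone messages, which cells make in S phase, and stood at 545 and 534, a log2 ratio of -0.03 (-0.06 to 0.00).

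The 6 helicase subunits, which act as 1 ring, were all at higher levels in *MZwnt11/slb* but by unequal amounts, with log2 ratios from 0.12 to 0.95. *mcm6* stood at 148 CPM in wild type and 285 in *MZwnt11/slb*, a log2 ratio of 0.95 (0.90 to 0.99). *mcm7* stood at 117 and 206, a log2 ratio of 0.82 (0.77 to 0.88). *mcm3* stood at 239 and 359, a log2 ratio of 0.59 (0.55 to 0.62). These 3 were the replication genes past the fold on the higher side. The remaining subunits lay below it, with *mcm2* at a log2 ratio of 0.35, *mcm5* at 0.13 and *mcm4* at 0.12. In wild type the 6 levels spanned 117 to 239, and in *MZwnt11/slb* 206 to 359.

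*gins2*, a subunit of the GINS complex that joins the helicase at the fork, had the lowest ratio of all 40 genes. It counted 656 UMIs in wild type and 255 in *MZwnt11/slb*, or 17.6 and 6.37 CPM, a log2 ratio of -1.46 (-1.68 to -1.25). *rpa2*, a subunit of the protein that coats single-stranded DNA, had the next lowest ratio of the replication genes, at 107 and 83.6, a log2 ratio of -0.36 (-0.42 to -0.29). The other polymerase and chromatin factors, *fen1*, *rfc4* and *chaf1b*, had log2 ratios of -0.20, -0.13 and -0.12. The nucleotide enzymes lay on the other side, *rrm1* of ribonucleotide reductase at 0.20 and the thymidylate synthase gene *tyms* at 0.25. *ccne2*, the cyclin E gene of the list, stood at 167 and 175, a log2 ratio of 0.07.

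Of the mitotic cyclins, *ccna2* had the most UMIs, at 1017 CPM in wild type and 1021 in *MZwnt11/slb*, a log2 ratio of 0.01 (-0.01 to 0.03). *ccnb1* stood at 725 and 746, a log2 ratio of 0.04 (0.02 to 0.07). *ccnb2* stood at 208 and 258, a log2 ratio of 0.31, and its kinase *cdk1* at 65.5 and 86.1, a log2 ratio of 0.40. *ccna2* and *ccnb1* thus had nearly the same level in both libraries, while *ccnb2* and the kinase were higher in *MZwnt11/slb*. The kinases *plk1*, *aurka* and *aurkb* had log2 ratios of -0.03, -0.02 and -0.13. *cdc20* and *ube2c*, which act with the ligase that destroys cyclin B, had log2 ratios of 0.20 and 0.11. *ube2c* is carried by 2 identifiers in the gene list, and their UMIs were added.

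*mki67*, the gene of the Ki-67 protein that coats mitotic chromosomes, had the highest ratio of the mitosis genes. It stood at 676 CPM in wild type and 988 in *MZwnt11/slb*, a log2 ratio of 0.55 (0.52 to 0.57). *top2a*, the topoisomerase that untangles sister chromatids, came next at 122 and 169, a log2 ratio of 0.48 (0.42 to 0.53). Close behind were the spindle genes *tpx2* and *nusap1*, at log2 ratios of 0.46 and 0.40, and the kinetochore gene *cenpf* at 0.39.

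On the lower side, *bub1bb* and *birc5a* were past the fold. *bub1bb*, the zebrafish BubR1 gene of the spindle checkpoint, stood at 156 CPM in wild type and 82.2 in *MZwnt11/slb*, a log2 ratio of -0.93 (-0.99 to -0.86). *birc5a*, a Survivin gene whose protein guides Aurora B to the centromere, stood at 70.9 and 46.6, a log2 ratio of -0.61 (-0.69 to -0.52). The mitotic kinesin *kif11* had a log2 ratio of -0.43 and the other kinesins of the list lay nearer to 0, *kif23* at 0.04 and *cenpe* at -0.12. The microtubule-binding genes *hmmr* and *tacc3* had log2 ratios of -0.15 and -0.19. *bub1*, the checkpoint kinase, was almost undetected, with 113 UMIs in wild type and 103 in *MZwnt11/slb*, and its interval of -0.63 to 0.17 leaves its direction unresolved at this depth.

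**Figure D1:**
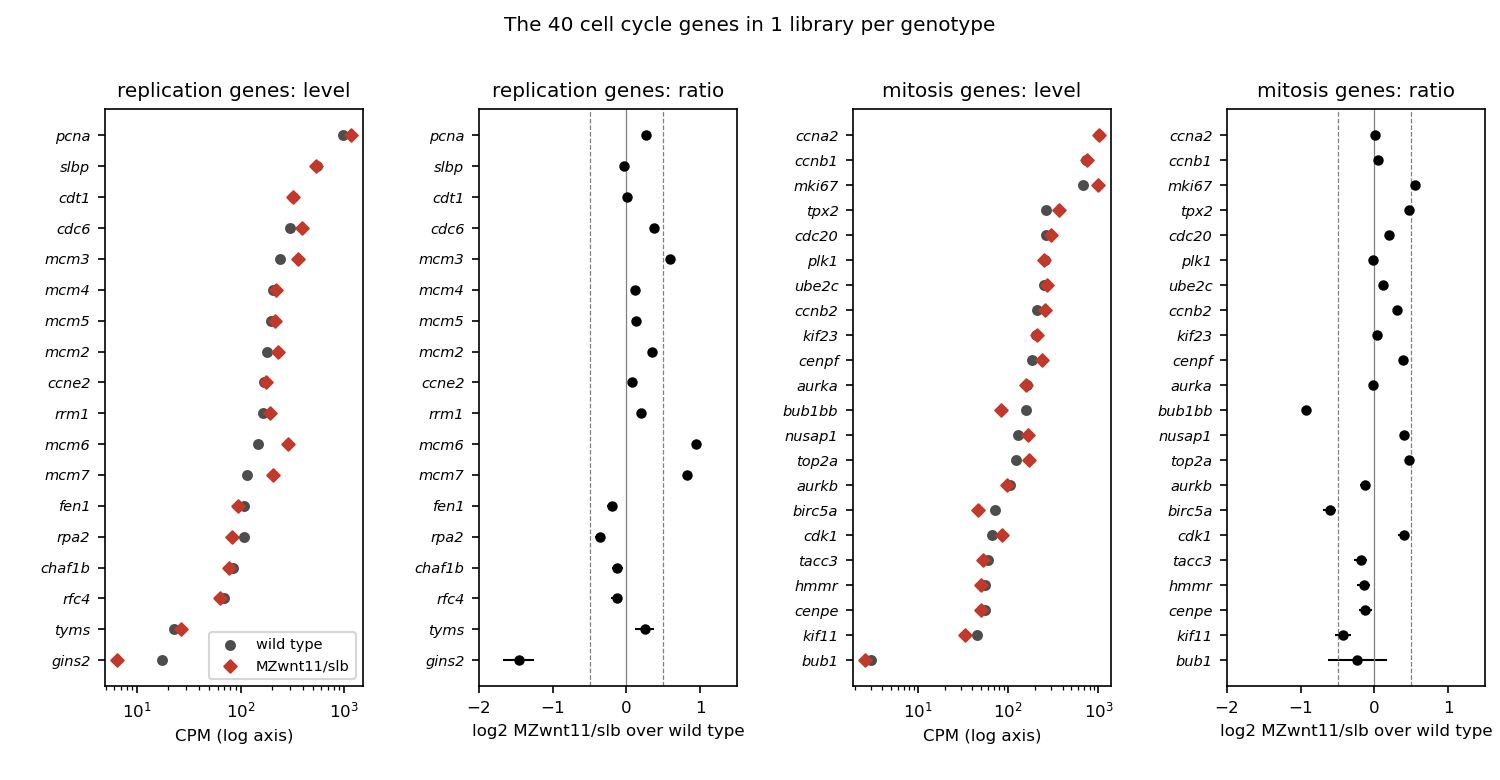
Level of each of the 40 genes in CPM (log axis; grey circles, wild type; red diamonds, *MZwnt11/slb*) and the log2 ratio of *MZwnt11/slb* over wild type with its 95% counting interval (bars), for replication and mitosis genes in order of wild-type level; dashed lines mark log2 ratios of 0.5 in size. Most points sit between the dashed lines, with *mcm6*, *mcm7*, *mcm3* and *mki67* to the right of them and *gins2*, *bub1bb* and *birc5a* to the left.

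Genes of the same processes outside the members were spread in both directions, and are set against the 14.9% higher and 24.2% lower of all genes tested. Of 43 other replication genes that passed the minimum, 8 (18.6%) were past the fold on the higher side and 4 (9.30%) on the lower side, with a median log2 ratio of -0.02. The highest was *gmnn*, whose product geminin inhibits Cdt1, at 215 CPM in wild type and 421 in *MZwnt11/slb*, a log2 ratio of 0.97 (0.93 to 1.01). The lowest was *gins3*, a further GINS subunit, at 64.0 and 32.9, a log2 ratio of -0.96 (-1.06 to -0.86). The remaining GINS subunits, named after their values were seen, lay near 0, *gins1* at a log2 ratio of 0.05 (-0.09 to 0.20) and *gins4* at -0.16 (-0.32 to 0.01).

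Of 52 other mitosis genes that passed, 11 (21.2%) were higher and 5 (9.62%) lower, with a median log2 ratio of 0.10. *spc24*, of the Ndc80 kinetochore complex, was highest, at 35.8 and 88.1 CPM, a log2 ratio of 1.30 (1.21 to 1.39). *pttg1*, the securin gene, stood at 108 and 221, a log2 ratio of 1.03 (0.98 to 1.08). The kinesin *kif18a* stood at 24.97 and 11.64, a log2 ratio of -1.10 (-1.26 to -0.94). The midzone gene *prc1b* was lowest, with 78 UMIs in wild type and 31 in *MZwnt11/slb*, a log2 ratio of -1.43 (-2.08 to -0.81).

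Cell cycle control genes, which include cyclin D genes, E2F factors, checkpoint kinases and inhibitors, had 5 (14.7%) higher and 8 (23.5%) lower of 34 that passed, shares near those of all genes, with a median log2 ratio of -0.03. *ccnd3*, a cyclin D gene, had the highest ratio, with 296 and 566 UMIs, a log2 ratio of 0.84 (0.63 to 1.04). *rbl2*, a gene of the retinoblastoma family, had the lowest, with 310 and 147 UMIs, a log2 ratio of -1.18 (-1.47 to -0.89). Also at least 1 log2 unit lower was *cdkn1a*, the p21 inhibitor, with 109 and 58 UMIs, at -1.01 (-1.49 to -0.54).

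For *rrm2*, the second subunit of ribonucleotide reductase, the gene list holds 2 identifiers, and each library used a different one. One identifier counted 128 UMIs in wild type and 41596 in *MZwnt11/slb*, and the other 28837 and 105. Added together they had a log2 ratio of 0.43. UMIs of near-identical copies can be split between identifiers. Both libraries list the same 27597 genes and name the same program version, but the sources used do not state whether the reference and settings were the same, and a difference there could touch any ratio between the genotypes. The cause of the exchange was not tested.

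To ask where in the embryo these genes are used, cells were clustered without any of the cell cycle genes, and 12 of 17 clusters were joined into 9 classes that are called by the marker list they carried. In the class named enveloping layer-like, after the flat epithelium that covers the embryo, 9 of 10 markers were above the other cells in both libraries, and they took 96519 and 96841 CPM, against 1950 and 2550 in the other cells. In wild type 692 of its 693 cells fell in cluster 9, and all 584 of *MZwnt11/slb* in cluster 11, so the class is compared through different clusters in the libraries. Axial mesoderm-like cells, 150 in wild type and 250 in *MZwnt11/slb*, had all 9 markers higher in both libraries. Over both libraries 5 of 7 endoderm markers also passed the 1.5 times used for naming in this class. In the neural ectoderm-like class 7 and 8 of 10 markers were higher, and over both libraries 4 passed the 1.5 times used for naming, against 5 in the unnamed cluster 2. *six3b* was at 0, and cluster 3 held 1368 of the 2087 wild-type cells but 389 of the 2189 *MZwnt11/slb* cells. Cluster 5 held 600 and 991. Clusters 3 and 5 each passed only 3 of 10 neural markers and had none among their leading genes, so the name of this class is weakly based. Cluster 7, the remaining part of the class, passed 5 and had *otx2b* among its leading genes. Non-neural ectoderm-like cells were also weakly marked, with 5 and 6 of 9 markers higher and a summed level of 2468 CPM in wild type against 2122 in the other cells, and 1929 against 1519 in *MZwnt11/slb*. Yolk syncytial layer-like cells carried 5 of 8 markers of their own but also 6 of 7 endoderm and 5 of 8 stress-like markers. Paraxial mesoderm-like cells carried all 8 of their own but also 5 of 8 ventrolateral mesoderm and 5 of 7 endoderm markers. Clusters 8 and 13, with median UMIs of 8586 and 8193, were kept apart because doublets were not removed, and cluster 13 carried 9 of 10 enveloping layer markers.

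The lowest and the highest class lay farther apart in the S sum than the libraries did, but some classes lay closer together than the libraries. The S sum was lowest in enveloping layer-like cells, at 1228 CPM (1193 to 1265) in wild type and 1430 (1389 to 1472) in *MZwnt11/slb*. Neural ectoderm-like cells stood at 4616 (4567 to 4665) and 5286 (5242 to 5330). Ventrolateral mesoderm-like cells stood at 4459 (4396 to 4523) and 5223 (5157 to 5291), an interval that overlaps the neural one in *MZwnt11/slb*, and non-neural ectoderm-like cells at 4197 and 4942. Between these and the lowest class lay the paraxial mesoderm-like cells at 3909 and 4486, the stress-like cells, which carry p53 target genes, at 3852 and 4132, and the germ cell-like cells at 3815 and 4247. In wild type the intervals of the last 3 overlap, so their order is not resolved. Yolk syncytial layer-like cells stood at 3200 and 4291 and axial mesoderm-like cells at 2920 and 3681.

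Ordered by the G2/M sum, the classes ran differently. Germ cell-like cells, 27 in each library, were highest at 7359 CPM (6904 to 7836) in wild type and 7569 (7168 to 7986) in *MZwnt11/slb*. Enveloping layer-like cells were again lowest, at 2179 (2132 to 2228) and 2715 (2658 to 2773). Yolk syncytial layer-like cells were next, at 3770 and 4861. The other 6 classes lay between 5053 and 5718 in wild type and between 5270 and 6289 in *MZwnt11/slb*.

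The balance of the sums therefore varied by class. For each S UMI, germ cell-like cells held 1.93 and 1.78 G2/M UMIs, enveloping layer-like cells 1.77 and 1.90, and axial mesoderm-like cells 1.76 and 1.59. In the neural ectoderm-like class the value was 1.19 in both libraries. In the unnamed cluster 16, of 10 and 17 cells with *foxj1a* and *sox17* among its leading genes, it was 2.11 and 2.25, from 74 and 161 S UMIs.

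**Figure D2:**
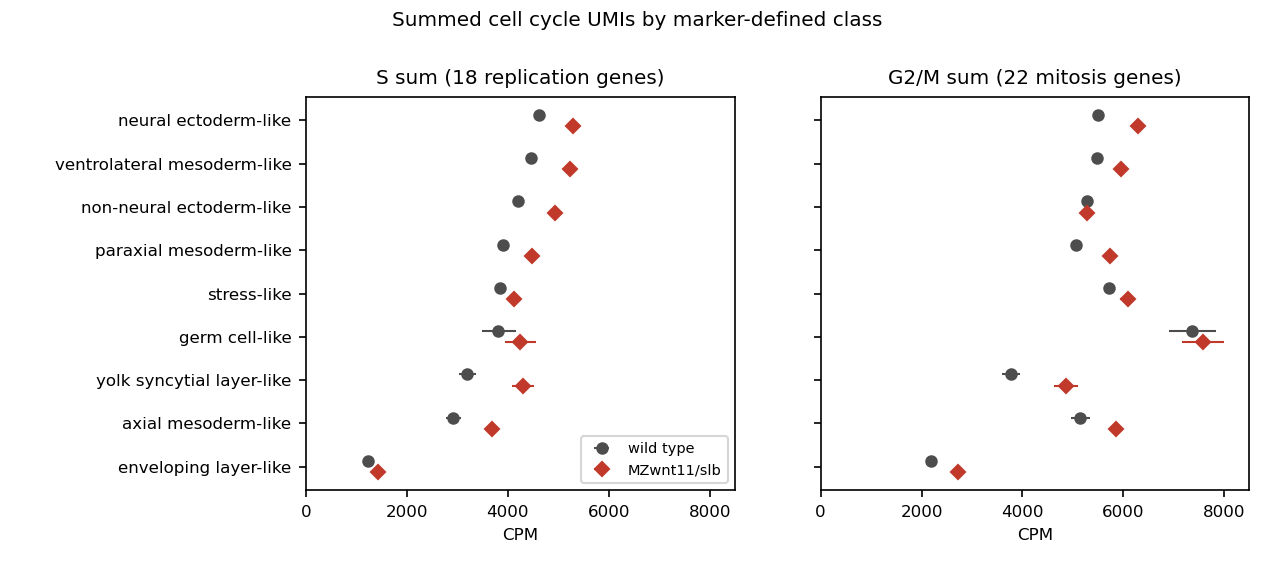
S sum (left) and G2/M sum (right) in CPM for the 9 marker-defined classes in wild type (grey circles) and *MZwnt11/slb* (red diamonds); bars are 95% counting intervals and are hidden by the point where narrow. Enveloping layer-like cells lie at 1228 and 1430 for S, far to the left of the other classes, and germ cell-like cells lie at 7359 and 7569 for G2/M, to the right of the others.

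Enveloping layer-like cells held less of nearly every replication gene. Against all other cells of the library the S sum had a log2 ratio of -1.80 (-1.84 to -1.75) in wild type and -1.79 (-1.83 to -1.74) in *MZwnt11/slb*, and the G2/M sum -1.30 (-1.34 to -1.27) and -1.12 (-1.15 to -1.09). Of the 18 replication genes 17 were past the fold on the lower side in each library. This has to be read against all genes with at least 10 expected UMIs, of which 57.7% were lower and 13.6% higher in wild type, and 59% lower and 13.4% higher in *MZwnt11/slb*. The median log2 ratio was -1.74 and -1.51 over the replication genes, and -0.67 and -0.70 over all genes. Relative to that median the S sum stood at -1.13 and -1.08, and the G2/M sum at -0.63 and -0.42.

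Within that class *mcm6* was the replication gene farthest below the other cells, at 16.2 CPM in wild type and 25.2 in *MZwnt11/slb*, log2 ratios of -3.32 and -3.61. *cdc6* stood at 57.1 and 53.2, log2 ratios of -2.51 and -2.97, and *mcm5* at 40.9 and 24.6, log2 ratios of -2.38 and -3.23. Other helicase genes were reduced far less, *mcm7* at log2 ratios of -0.82 and -0.59 and *mcm4* at -1.07 and -1.11. *slbp* had log2 ratios of -2.21 and -3.17. The exception was *gins2*, at -0.36 from 51 UMIs in wild type and 0.56 from 29 UMIs in *MZwnt11/slb*.

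Mitosis genes ranged widely in the enveloping layer-like class. In wild type 18 of 22 were lower and 1 higher, with a median of -1.26, and in *MZwnt11/slb* 14 of the 21 with enough expected UMIs were lower and 1 higher, with a median of -0.89. The count in *MZwnt11/slb* is near the 59% of all genes that were lower there. The kinesin *kif11* was lowest, at 5.76 and 4.36 CPM, log2 ratios of -3.10 and -3.05. *nusap1* had log2 ratios of -2.69 and -2.24, *top2a* of -2.37 and -2.70, and *cenpf* of -2.95 and -1.98. The cyclin genes *ccnb1*, at -2.06 and -1.77, and *ccna2*, at -1.21 and -1.40, were also far below the other cells. Some genes of kinases, the centromere and the checkpoint did not pass the fold in either library, with *aurka* at -0.30 and -0.38, *birc5a* at -0.31 and -0.27 and *bub1bb* at -0.14 and 0.16. *hmmr* was the 1 gene on the higher side, with log2 ratios of 1.29 and 0.94. Cells of this class had more UMIs than the library median, 5047 and 5272 per cell, and how much of the low levels is free RNA from other cells was not tested.

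Axial mesoderm-like cells, the class with *gsc* and *shha* of the organizer, combined a lower S sum with a G2/M sum close to that of other cells. Their S sum was 2920 CPM in wild type and 3681 in *MZwnt11/slb*, log2 ratios of -0.45 (-0.52 to -0.38) and -0.35 (-0.39 to -0.30) against the other cells. The G2/M sum was 5147 and 5849, log2 ratios of 0.02 (-0.03 to 0.07) and 0.05 (0.02 to 0.09). Of the replication genes, 9 of 18 were lower in wild type and 5 of 17 in *MZwnt11/slb*, where 20.5% and 15.3% of all genes were. No mitosis gene was past the fold on the lower side in either library. On the higher side were 1 replication and 1 mitosis gene in wild type and 2 mitosis genes in *MZwnt11/slb*, against 7.06% and 8.98% of all genes.

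Of the helicase genes, *mcm2* stood at 78.7 and 139 CPM in these cells, log2 ratios of -1.22 and -0.75, and *mcm6* at 82.2 and 112, log2 ratios of -0.86 and -1.37. *mcm5* had log2 ratios of -0.79 and -0.85, and *cdc6* of -0.81 and -0.60, while *cdt1* had -0.26 and 0.08. *mcm4* had 0.02 and -0.32, and *mcm7* 0.01 and -0.06. The value depends on which cells make the class. Without the correction of the clustering for library the class held 112 wild-type and 811 *MZwnt11/slb* cells, and its S log2 ratio was -0.48 in wild type but -0.02 in *MZwnt11/slb*; at resolution 0.5, with 261 and 473 cells, it was -0.24 and -0.17.

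*hmmr*, which binds hyaluronan as well as spindle microtubules, was past the fold on the higher side in 3 classes in both libraries, as no other mitosis gene was. It stood at 198 CPM in axial mesoderm-like cells of wild type and 138 in those of *MZwnt11/slb*, log2 ratios of 1.90 (1.61 to 2.17) and 1.55 (1.31 to 1.77). In paraxial mesoderm-like cells it stood at 110 and 107, log2 ratios of 1.14 and 1.29, and in enveloping layer-like cells at 118 and 89.3. In neural ectoderm-like cells it stood at 28.4 and 31.2, log2 ratios of -1.12 and -0.86. Against the other cells, the axial, paraxial and enveloping layer-like classes were thus above in both libraries, and the neural ectoderm-like, non-neural ectoderm-like and ventrolateral mesoderm-like classes were below, with intervals clear of 0. *tacc3* was lower in paraxial mesoderm-like cells, at log2 ratios of -0.74 and -0.76.

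The 27 germ cell-like cells of each library carried all 8 germ cell markers. Of genes picked after their values were seen, *tpx2* stood at 642 CPM in wild type and 806 in *MZwnt11/slb*, log2 ratios of 1.30 and 1.16 against the other cells. *ccnb2* stood at 559 and 511, log2 ratios of 1.43 and 0.99, and *ccnb1* at 1247 and 1278, log2 ratios of 0.79 and 0.78. *plk1* had log2 ratios of 1.10 and 0.95 and *kif23* of 1.03 and 0.96. *hmmr* had 0.13 and -0.82, from 8 and 5 UMIs. *mcm2* was below the other cells, at -1.42 and -1.26, from 9 and 17 UMIs. *tyms* had log2 ratios of 2.53 and 2.02, from 17 and 19 UMIs, where fewer than 10 were expected. With so few cells these values rest on few UMIs per gene. Shares and medians over all genes were computed only for the enveloping layer-like and axial mesoderm-like classes. Single-gene ratios in the other classes have no such values beside them.

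In yolk syncytial layer-like cells *cdt1* was above the other cells, at log2 ratios of 1.06 in wild type and 1.005 in *MZwnt11/slb*, and *ccne2* below them, at -1.25 and -1.06. In stress-like cells *pcna*, in mammals also a p53 target, had log2 ratios of 0.35 and 0.40, whereas *mcm6* had -0.81 and -1.19 and *mcm3* -0.67 and -0.93. In neural ectoderm-like cells *mcm6* had log2 ratios of 0.44 and 0.53.

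**Figure D3:**
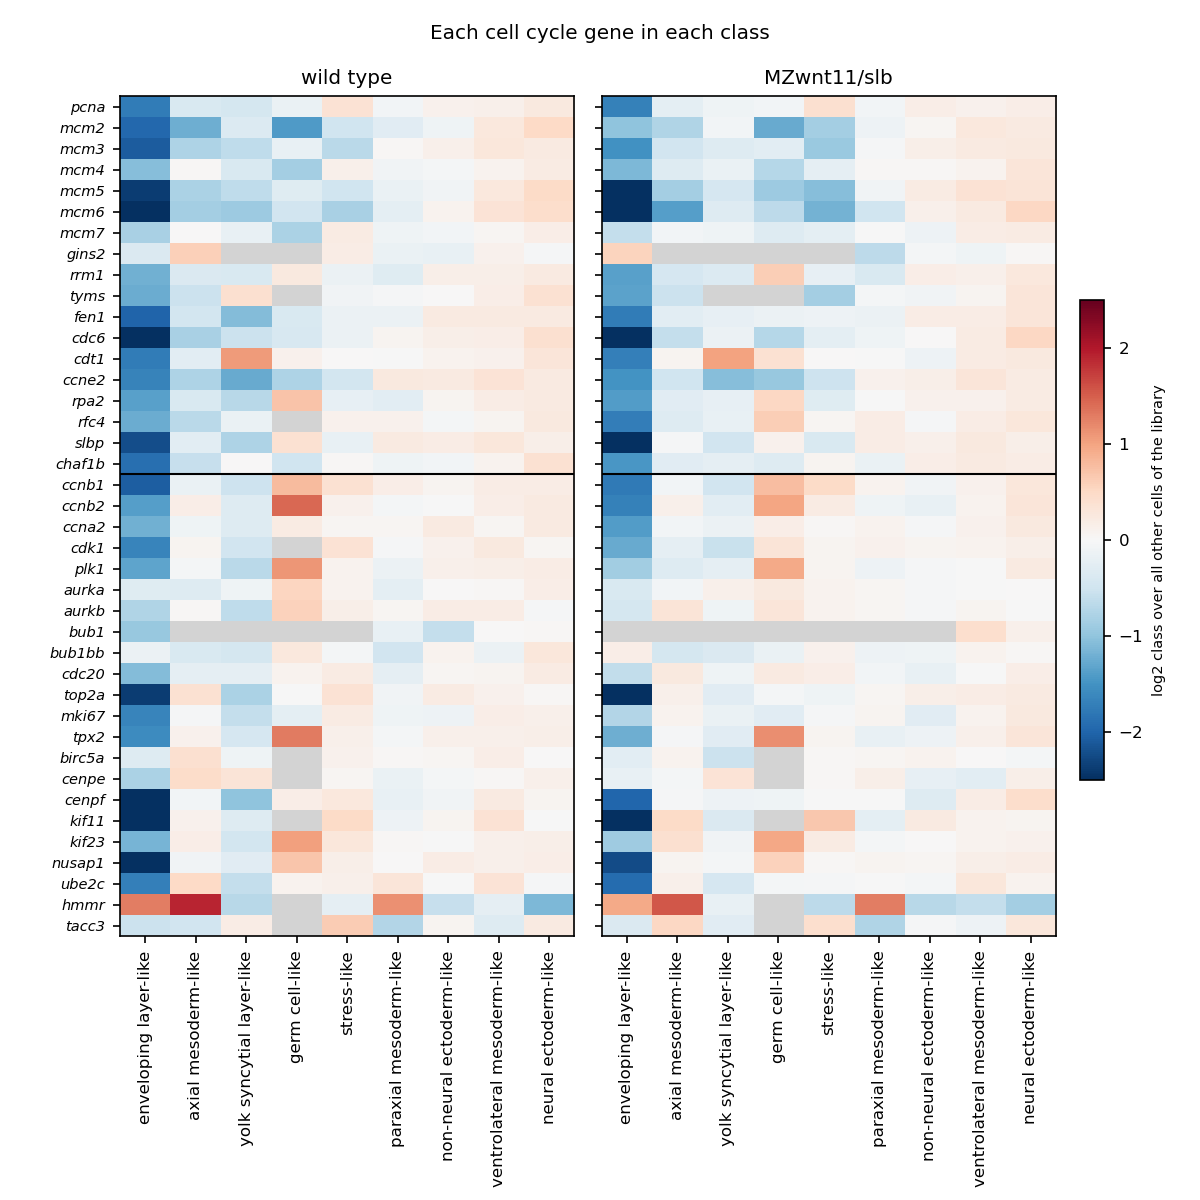
Log2 ratio of each gene in a class over all other cells of the same library, for wild type (left) and *MZwnt11/slb* (right); rows are replication genes above the black line and mitosis genes below it, columns are classes in order of wild-type S sum, colours are clipped at 2.5 in size, and grey marks fewer than 10 expected UMIs. The enveloping layer-like column is blue for most genes and the row of *hmmr* is red in the enveloping layer-like, axial and paraxial columns, where its wild-type values are 1.29, 1.90 and 1.14.

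Within classes the size of the difference between genotypes varied. The log2 ratio of the S sum, *MZwnt11/slb* over wild type, was above 0 in 9 of 9 classes, from 0.10 (0.05 to 0.16) in stress-like to 0.42 (0.32 to 0.53) in yolk syncytial layer-like cells, with an interval that includes 0 in germ cell-like cells. For the G2/M sum it ran from 0.00 (-0.03 to 0.03) in non-neural ectoderm-like to 0.37 (0.27 to 0.46) in yolk syncytial layer-like cells. The S sum of enveloping layer-like cells had a log2 ratio of 0.22 (0.16 to 0.28) and that of neural ectoderm-like cells 0.20 (0.18 to 0.22). The neural class joins clusters 3, 5 and 7, which were mixed differently in the libraries, and its ratio includes that mix. In wild type and *MZwnt11/slb* their S sums were 4436.5 and 4778 CPM in cluster 3, and 4947 and 5387 in cluster 5. In cluster 7, with 119 and 809 cells, they were 4377 and 5314. With clusters weighted as in wild type the log2 ratios over all cells were 0.20 for S and 0.14 for G2/M.

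Single genes past the fold over all cells kept their direction across classes with enough UMIs. They were picked for their ratio over the same cells that make up the classes. The agreement was therefore largely built in, and the classes are no repeats. *mcm6*, *mcm7* and *mcm3* were above 0 in 8 of 8 classes each, with *mcm6* from 0.45 in axial mesoderm-like to 1.52 in yolk syncytial layer-like cells. *mki67* was above 0 in 9 of 9, from 0.32 in stress-like to 1.42 in enveloping layer-like cells. In the latter it stood at 231 CPM in wild type and 616 in *MZwnt11/slb*. *bub1bb* was below 0 in 7 of 7, from -1.13 to -0.59, and *birc5a* in 7 of 7, from -0.91 to -0.55. *gins2* had enough UMIs in 2 classes and was below 0 in both. Other genes changed sign with the class, as *slbp* did, from -0.99 in enveloping layer-like to 0.25 in yolk syncytial layer-like cells.

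In single cells S and G2/M UMIs were compared at 1 depth. Each cell was thinned to 2944 UMIs, which left out shallower cells and kept 6647 wild-type and 6856 *MZwnt11/slb* cells. A cell then held on average 11.9 S UMIs in wild type (SD 4.84 over cells) and 13.8 in *MZwnt11/slb*, and 15.0 and 16.7 G2/M UMIs. The median was 12 S and 15 G2/M UMIs in wild type, and 90% of cells had between 3 and 20 S and between 6 and 23 G2/M UMIs. If cells of a library did not differ, the variance over cells would equal that of counting. The variance of the S UMIs was 1.97 and 2.005 times counting, and that of the G2/M UMIs 1.78 and 1.73 times.

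S and G2/M UMIs varied together over all cells. Pearson's r was 0.35 in wild type over 6647 cells and 0.33 in *MZwnt11/slb* over 6856 cells, and Spearman's rho 0.27 and 0.26. Cells of 1 library share depth and chemistry, so these are descriptions and not tests. Most of the relation came with the enveloping layer-like cells, which are low in both. In that class the median log2 ratio over all genes was also low, at -0.67 in wild type and -0.70 in *MZwnt11/slb*. No gene list outside the cell cycle was compared per cell, so the relation is not shown to be particular to these genes. Without enveloping layer-like cells r was 0.05 and 0.09, and without cluster 13 as well it was 0.02 and 0.06. The variances were then 1.34 and 1.44 times counting for S, and 1.23 and 1.31 for G2/M. Inside the classes r ran from -0.15 to 0.36 in wild type and from 0.02 to 0.16 in *MZwnt11/slb*, with the highest wild-type value over 62 yolk syncytial layer-like cells. In counts this sparse such weak values are no finding.

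The pattern is plain when cells are ranked by G2/M UMIs. In the lowest 10% of wild-type cells, 74.6% were enveloping layer-like and the mean was 5.57 S UMIs. From the third step of 10% upwards the mean lay between 12.2 and 13.2. In *MZwnt11/slb* 58.0% of the lowest 10% were enveloping layer-like, with a mean of 7.98 S UMIs, and from the third step upwards the mean lay between 14.1 and 15.1. Median UMIs per cell before thinning were 4845 in the lowest and 4589 in the highest 10% of wild type, and 5192 and 5166 in *MZwnt11/slb*.

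**Figure D4:**
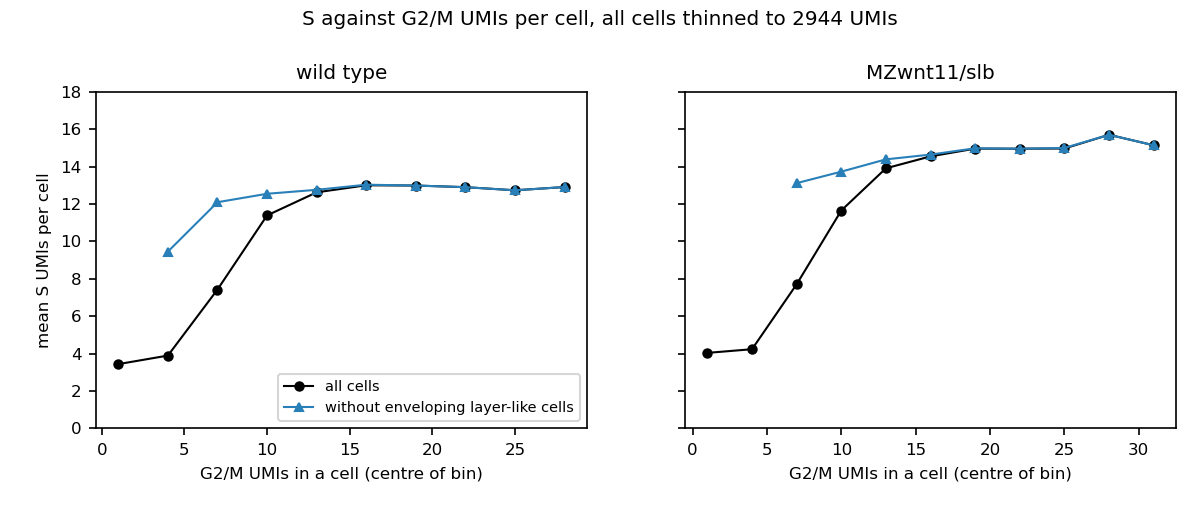
Mean S UMIs per cell (vertical axis) against G2/M UMIs per cell in bins of 3 (horizontal axis), with every cell thinned to 2944 UMIs, for wild type (left) and *MZwnt11/slb* (right); black circles are all cells, blue triangles leave out enveloping layer-like cells, bins with fewer than 20 cells are not drawn and no error is shown. The black line climbs from 3.44 in wild type to a plateau near 13, and most of the climb is missing from the blue line.

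The values of r changed with the depth of thinning. A lower depth also keeps shallower cells, so the part played by depth alone was not tested. At 1000 UMIs per cell r was 0.14 in wild type and 0.16 in *MZwnt11/slb*, and at 2000 it was 0.25 and 0.24. The shares of each cell's UMIs, without thinning, gave 0.34 and 0.37.

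Pairs of single members had low r from cell to cell. In wild type a thinned cell held on average 2.94 UMIs of *pcna* but 0.055 of *gins2* and 0.16 of *hmmr*. At such counts r stays low even for related genes, so neither the low values nor their order is a finding. The median r over pairs within the replication list was 0.031 in wild type and 0.027 in *MZwnt11/slb*, within the mitosis list 0.022 and 0.016, and between the lists 0.017 in both. Without enveloping layer-like cells the medians within lists were 0.010 and 0.012 for replication and 0.008 in both libraries for mitosis. The highest r of any of the 780 pairs was 0.15 in wild type and 0.13 in *MZwnt11/slb*. In the replication list the highest median r with the rest of the list was that of *pcna* in wild type, 0.072, and of *mcm3* in *MZwnt11/slb*, 0.058, and the lowest that of *gins2* in both, 0.002 and -0.006. In the mitosis list it was highest for *ccnb1* in wild type, 0.049, and *nusap1* in *MZwnt11/slb*, 0.034, and lowest for *hmmr* in both, -0.018 and -0.006. Replication genes outside the members, summed per cell, had an r of 0.41 and 0.39 with the S sum over all cells and 0.19 and 0.18 without enveloping layer-like cells. With the G2/M sum the same genes had 0.31 and 0.33 over all cells, and 0.06 and 0.12 without that class. Mitosis genes outside the members had 0.36 and 0.34 with the S sum over all cells, and 0.39 and 0.38 with the G2/M sum. Cell cycle control genes had 0.28 and 0.30 with the S sum.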

How the data were processed

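Per the labels the authors made 1 Chromium 3′ library from whole shield-stage embryos of each genotype, and the deposited values are raw UMI counts per gene and cell, with no normalization. The submitters' processing notes name Cell Ranger 6.1.1 and the build GRCz11. The study's methods name another version of that program, and whether intronic reads were counted is not stated by the sources used. Every deposited cell was kept, which leaves free RNA and doublets in the counts, and no doublet caller was run.

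UMIs were summed over cells and divided by the total of those cells. Ratios of 2 sums carry exact conditional Poisson intervals and levels exact Poisson intervals, both at 95% and for counting error only, since UMIs of 1 library say nothing of the spread between embryos. Genes needed 100 UMIs over both libraries for the genotype ratio, and 10 expected UMIs for a class ratio. In class ratios over all genes counts under 3 were set to 3. Named genes were, in the replication and in the mitosis list, the 3 with the most wild-type CPM, the 2 highest and 2 lowest ratios, those past the fold and those with the highest and lowest median correlation, and in each of the 3 wider lists the highest and the lowest ratio and those of at least 1 in size on the log2 scale; other members are given with their ratio, and genes given by class were chosen after their values were seen. The members, the 3 wider lists and the marker lists were chosen with earlier results of these data known.

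For the classes, 17374 genes seen in at least 10 cells, without any listed cell cycle gene, were reduced to 30 principal components, and the residuals of these on depth (log10 UMIs) and library were kept. Cells were joined by their 20 nearest neighbours and clustered with leidenalg 0.10.2 at resolution 1. A name needed 3 markers that each had 10 UMIs or more and stood 1.5 times above the other cells. Where 1 list alone had the most markers among the 10 leading genes, it needed 2 there or at least 0.5 of its markers passing. Otherwise the list with the most passing markers needed a margin of 2 over the next list, and as many leading genes as any list. These thresholds were set after clusters were seen. Thinning drew 2944 UMIs per cell without replacement, the lower 25th percentile of the libraries. The intervals were tested on libraries simulated with counting error alone, which cannot show how they hold for spread between embryos. The thinning was tested on simulated cells at a lower depth than the one used here. Python 3.11.15, numpy 2.4.6 and scipy 1.17.1 were used. Sequences were not used here.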

Additional observations from a re-analysis of the deposited data

Results flagged for a closer look

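Of 340 pairs of a gene and a class with at least 10 expected UMIs in both libraries, 5 had ratios over the other cells of opposite sign in the 2 libraries with both counting intervals clear of 0, and every one of the 10 ratios is under 0.25 in size. The differences between libraries were not tested. In non-neural ectoderm-like cells *ccnb1* had a log2 ratio of 0.064 in wild type and -0.093 in *MZwnt11/slb*. In the same class *cdt1* had 0.094 and -0.128, and *tpx2* had 0.13 and -0.14. In stress-like cells *mcm7* had 0.20 and -0.24. In paraxial mesoderm-like cells *mki67* had -0.113 and 0.059.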

How the results depend on the processing

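No paired analysis was possible because each genotype has 1 library, and for the same reason no replicate could be left out. Of 169 alternative values of the main results 51 moved. The bound was counting error for ratios and a set factor for counts. For correlations and variances it was an interval from the number of cells, which treats cells as independent. No ratio or correlation scored for direction changed it. Counts and variances have no direction to change, and class ratios with an interval that includes 0 were not scored for it. The causes of the moves were not tested. The log2 ratios of the S and G2/M sums were 0.32 and 0.24 with median-of-ratios scaling, 0.20 and 0.14 with clusters weighted as in wild type, 0.22 and 0.19 without *pcna* and *ccna2*, and 0.21 and 0.13 without enveloping layer-like cells, a setting added after seeing the data, as were values relative to the median of all genes. In cells of 1000 UMIs or more, 10% or less of them mitochondrial, the G2/M ratio was 0.17. A fold of 1 in place of 0.5 on the log2 scale left 1 member past it, *gins2*, in place of 7. None of these 7 changed sign in 7 settings of cells and scaling, while *cdt1*, *slbp*, *ccna2*, *plk1* and *aurka*, 5 of 40, did. The 7 were picked for large ratios, the 5 had small ones, and every setting used the same 2 libraries. This outcome was therefore largely fixed in advance.

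Per cell, r was 0.14 in wild type and 0.16 in *MZwnt11/slb* at 1000 UMIs, 0.25 and 0.24 at 2000, 0.29 and 0.27 without *pcna* and *ccna2*, 0.045 and 0.089 without enveloping layer-like cells, and, unthinned, 0.37 in *MZwnt11/slb*. In the same order of libraries the S variance over counting was 1.28 and 1.30 at 1000 UMIs, 1.59 and 1.66 at 2000, 1.78 and 1.85 without *pcna*, and 1.34 and 1.44 without enveloping layer-like cells. The G2/M variance was 1.23 and 1.24, 1.48 and 1.45, and 1.23 and 1.31 under the depths and that exclusion, and 1.67 in *MZwnt11/slb* without *ccna2*.

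For enveloping layer-like over other cells the wild-type S and G2/M ratios were -1.86 and -1.35 in thinned cells, -1.85 and -1.34 at resolution 2, and -1.85 and -1.34 without the library correction, and the *MZwnt11/slb* G2/M ratio -1.16 in thinned cells. Relative to the median of all genes, S and G2/M were -1.13 and -0.63 in wild type and -1.08 and -0.42 in *MZwnt11/slb*. For axial mesoderm-like cells of wild type they were -0.36 and 0.11 relative to that median. The axial S ratio was -0.24 in wild type and -0.17 in *MZwnt11/slb* at resolution 0.5, where the *MZwnt11/slb* G2/M ratio was 0.11, and -0.022 in *MZwnt11/slb* without the library correction.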

Other observations

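Most clusters left outside the classes held sums of the same order as the named ones. Cluster 16, of 10 and 17 cells, had S sums of 1704 CPM in wild type and 2084 in *MZwnt11/slb*. These were below every class but the enveloping layer-like one. Cluster 2, which carried 5 of 10 neural and 4 of 9 non-neural ectoderm markers, had an S sum of 4487 CPM in wild type and 5317 in *MZwnt11/slb*, and a G2/M sum of 5695 and 6254. Cluster 6, with *foxd3*, *admp* and *noto* among its leading genes, had S sums of 4226 and 5093. Cluster 8, whose cells had a median of 8586 UMIs, had S sums of 4592 and 5126. Cluster 13, with the enveloping layer markers and a median of 8193 UMIs, had S sums of 2710 and 3523, above those of the enveloping layer-like class and below those of the other cells. In its cells S and G2/M UMIs had an r of 0.24 in both libraries, over 129 and 183 cells.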
